A study of Mus musculus with 6 samples.

Results

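The Spalt-like (Sall) family of zinc finger transcription factors has 4 genes in the mouse, Sall1, Sall2, Sall3 and Sall4. All 4 were found by symbol among the 51912 genes of the count table, 1 row each, and all 4 passed the filter on low counts that left 14889 genes. They were followed in R1 cells, an established mouse embryonic stem cell line. The cells were held in the naive state in 2iLIF, a medium with inhibitors of MEK and GSK3 and the cytokine LIF, and then moved to N2B27, which holds no serum, with 100 ng/ml of FGF2. The 6 libraries are 3 replicates taken at 24 h and 3 taken at 48 h. Cells in 2iLIF or without FGF2 were not analysed here, so every difference below is between the first and the second day in the new medium and carries FGF2, the loss of 2iLIF and time in culture together. All libraries come from 1 cell line, and no label tells if replicates came from separate cultures, so the p-values measure the spread between these libraries, which may be technical.

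SALL proteins bind DNA through groups of zinc fingers spread along the protein, and a short motif at their N-terminus recruits the NuRD complex, a histone deacetylase and nucleosome remodelling machine. Sall4 is needed by the early embryo and is a well-known member of the pluripotency network of embryonic stem cells, where SALL4 and SALL1 proteins work beside OCT4 and NANOG. Sall1 is best known for kidney development and is mutated in Townes-Brocks syndrome. Sall2 acts in neural development, closure of the optic fissure and growth arrest, and Sall3 in the palate and cranial nerves.

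Upstream sequences were available for Sall1 and Sall2, and 3 of the 5 windows are shown because Sall2 had the largest change of the family and its 2 starts lie in very different sequence. The near start and the stretch before it lie inside the intron of the longer Sall2 transcript. Each is sequence before an annotated start, 5′ to 3′ on the minus strand, from RefSeq on GRCm38.p6, and capitals mark CpG dinucleotides. The far Sall2 stretch is cut to the 158 bases before the GENCODE M21 start at 52328762, because the RefSeq start lies further in, at 52328670, and the bases between are exon in GENCODE M21. The other stretches are the 250 bases before the RefSeq start.
Sall2, far start, chr14:52328763-52328920: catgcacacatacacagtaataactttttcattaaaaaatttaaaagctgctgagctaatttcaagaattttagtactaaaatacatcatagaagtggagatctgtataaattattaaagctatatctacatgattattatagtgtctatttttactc
Sall2, near start, chr14:52316324-52316573: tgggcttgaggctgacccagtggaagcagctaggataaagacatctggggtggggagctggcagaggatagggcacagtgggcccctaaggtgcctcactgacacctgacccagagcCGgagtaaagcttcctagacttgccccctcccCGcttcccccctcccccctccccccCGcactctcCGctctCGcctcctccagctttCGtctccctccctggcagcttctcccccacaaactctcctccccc
Sall1, upstream start, chr8:89044163-89044412: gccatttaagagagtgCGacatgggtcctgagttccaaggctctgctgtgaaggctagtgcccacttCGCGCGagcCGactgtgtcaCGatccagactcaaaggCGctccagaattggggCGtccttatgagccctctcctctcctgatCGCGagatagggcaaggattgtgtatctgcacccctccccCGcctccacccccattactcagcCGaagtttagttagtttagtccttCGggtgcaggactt

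The stretch before the far start of Sall2 holds 0 CpG and is 25.3% G and C, against 6 CpG and 64.4% before its near start and 13 CpG and 56.4% before the upstream start of Sall1. Over whole windows of 300 bases (250 before and 50 after a start), the far Sall2 window was 30.3% G and C, and 1.03% of the 32851 windows in the reference table had less. The near Sall2 window was 65% G and C and the 3 Sall1 windows were between 57.3% and 79.7%. GENCODE M21 holds 1 transcript of Sall1, which starts at 89044162, as the upstream window does. The starts of the other Sall1 windows, 89043512 and 89042862, are not transcript starts in GENCODE M21. Searched on both strands, the letters CCGGAAG (an ETS core), ATGCAAAT (the octamer bound by POU factors) and CTTTGAA (a TCF core) were found in none of the 5 windows, while 8.86%, 1.74% and 5.14% of all windows hold them. The letters ATATT, of the short A and T rich kind that SALL4 protein binds, occurred 2 times in the far Sall2 window and in no other of the 5, against 25.3% of all windows. Neither match lies in the printed part. That window is also the one richest in A and T.

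The 4 genes lie on 4 chromosomes (GRCm38, GENCODE M21), all on the minus strand. Sall1 (ENSMUSG00000031665) is at chr8:89027235-89044162, Sall2 (ENSMUSG00000049532) at chr14:52311172-52328762, Sall3 (ENSMUSG00000024565) at chr18:80966376-80986771 and Sall4 (ENSMUSG00000027547) at chr2:168748332-168767943. Their longest coding transcripts hold 5265, 5147, 7079 and 5073 bases, so Sall3 collects more reads per molecule than the others. Sall2 has 2 annotated transcripts, which start at different first exons and share the second, and Sall4 has 5 annotated coding transcripts. The deposited values are sums per gene and do not tell these transcripts apart. Sall4 shares 526 bases of exon (9.5% of its exon bases) with Gm14261 on the opposite strand, which had between 7 and 19 counts in a library. No annotated gene overlaps Sall1, Sall2 or Sall3.

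The libraries held between 19574969 and 23133148 estimated counts. The embryonic stem cell genes Pou5f1, Sox2 and Nanog were present at both times, at 1111, 402.8 and 694.7 CPM at 24 h and 1058, 311.6 and 174.4 CPM at 48 h. Nanog thus fell strongly (log2 fold change -1.995) and Sox2 less (-0.37). Of the 8 embryonic stem cell genes listed, 4 were called higher and 4 lower at 48 h, beside 30.9% and 31.9% of all tested genes. The 4 higher were Lin28a (log2 fold change 1.55, from 192 to 562.8 CPM), Utf1 (0.60), Dppa4 (0.37) and Fgf4 (0.30). Zfp42 (-1.065) was called lower, as were Pou5f1, Sox2 and Nanog. CPM is the count per 1e+06 counts of the library total scaled by TMM, edgeR's correction for composition. Of 8 fibroblast markers, which would mark feeder cells, Postn and Lum were at 0 in every library, Col3a1 had at most 2 counts, Col1a2 at most 9, and the 4 tested ones summed to between 15 and 16.2 CPM at 24 h and between 17.8 and 20.5 CPM at 48 h, most of it Fbn1 (12.9 and 16.8 CPM, higher at 48 h). Of the other tested ones, Dcn was at 0 in every 24 h library and at 1.22 ± 0.202 CPM (SD, n = 3) at 48 h and was called higher, Col1a1 fell from 1.03 to 0.304 CPM, and Thy1 was not called. Of the neural markers, Neurog2 and Dcx had at most 3 counts, and the 8 tested ones summed to between 157.8 and 167 CPM at 24 h and between 219.8 and 226.6 CPM at 48 h. Their part in the values below was not tested. In bulk RNA, a change in the number of cells that express a gene and a change in RNA per cell cannot be told apart.

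Between 24 h and 48 h, Sall2 rose about 6-fold, Sall1 rose 1.45-fold, Sall4 rose slightly and Sall3 fell. All 4 passed the threshold of 0.05 on the adjusted p (edgeR's quasi-likelihood test, Benjamini-Hochberg over all 14889 genes), 3 higher at 48 h and 1 lower, and for all 4 the values of the 2 times did not overlap. Of all tested genes 62.8% were called, 30.9% higher and 31.9% lower, and 66.9% had values that did not overlap, so both are common here and say little about the family. What differed between the members was the size and the direction of the change. Their counts were whole numbers throughout, so no division of reads with a similar gene was recorded. Whole numbers cannot tell if shared reads were dropped or given wholly to 1 gene.

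Sall4, the pluripotency factor of the family, was measured at 300.7, 302 and 304.6 CPM in the 24 h libraries and at 359.7, 344 and 353.2 CPM in the 48 h libraries. The 48 h values all lie above the 24 h values, and the 24 h libraries have a coefficient of variation of 0.659%. The mean went from 302.4 ± 1.99 to 352.3 ± 7.89 CPM (SD, n = 3). On the log2 scale this is a rise of 0.22 ± 0.02 (standard error; 1.16-fold, edgeR adjusted p = 7.6e-08). Of all tested genes 56.3% changed by more in either direction. Sall4 thus lay near the middle of all tested genes by the size of its change.

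Sall1, the most counted member, was at 377.7, 385.1 and 381.8 CPM at 24 h and at 548.9, 557 and 551.6 CPM at 48 h. The times are far apart against a spread of under 1% within each, which is no wider than counting noise (1.11% at 24 h and 0.909% at 48 h). Its mean went from 381.5 ± 3.72 to 552.5 ± 4.14 CPM (SD, n = 3), which is 0.53 ± 0.02 on the log2 scale (standard error; 1.45-fold, edgeR adjusted p = 9.11e-14). Of all tested genes, 11.2% had a larger rise.

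Sall2, which was the lowest member at 24 h per transcript length, had 430, 435 and 435 counts in the 24 h libraries and 2712, 2751 and 2797 in the 48 h libraries. In CPM these were 21.5, 21.2 and 18.4 at 24 h, where replicate 3, the deepest library, is the lowest. They were 124.8, 125.7 and 126.2 CPM at 48 h. The coefficient of variation was 8.37% at 24 h, the highest of the family at that time (counting noise alone gives 4.8%), and 0.544% at 48 h. The mean went from 20.4 ± 1.71 to 125.6 ± 0.683 CPM (SD, n = 3), which is 2.63 ± 0.04 on the log2 scale (standard error; 6.18-fold, edgeR adjusted p = 3.14e-17). A larger rise was fitted for 104 of the 14889 genes (0.699%). Whether the rise came from the far start, the near start or both was not analysed here.

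Sall3 moved the other way. It had 713, 773 and 988 counts at 24 h and 649, 528 and 607 at 48 h, that is 35.7, 37.7 and 41.9 CPM against 29.9, 24.1 and 27.4 CPM. The groups do not overlap, but the libraries scatter more than counting noise alone gives, with coefficients of variation of 8.19% at 24 h and 10.6% at 48 h against 3.48% and 4.1%. The mean went from 38.4 ± 3.15 to 27.1 ± 2.88 CPM (SD, n = 3), which is -0.51 ± 0.07 on the log2 scale (standard error; 1.42-fold lower, edgeR adjusted p = 8.19e-06). Of all tested genes, 16% had a larger fall.

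**Figure D1:**
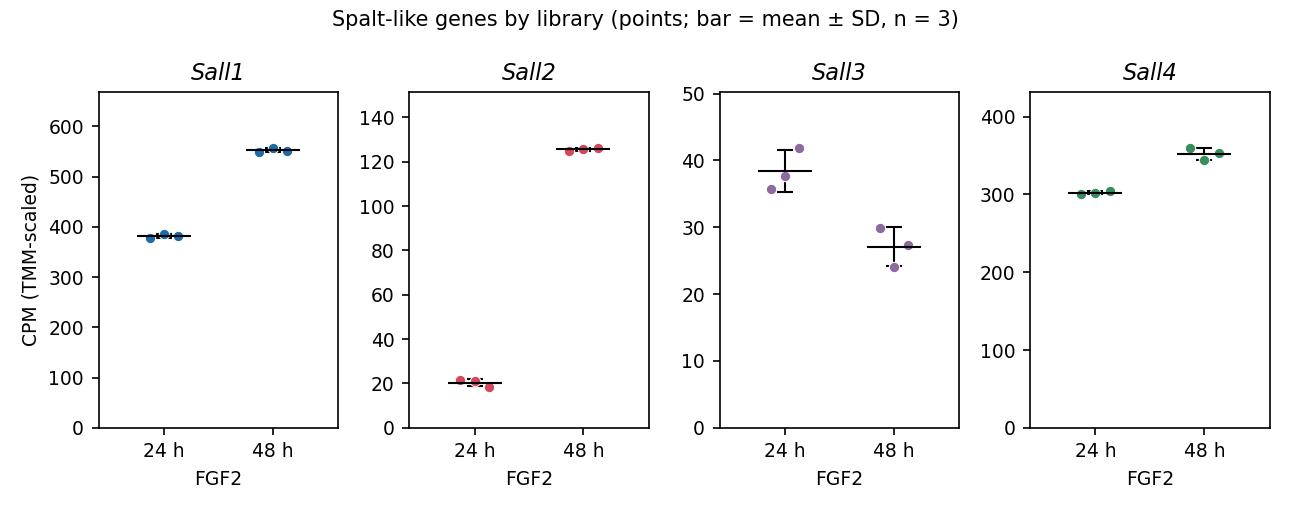
TMM-scaled CPM of each Spalt-like gene in the 3 libraries at 24 h and the 3 at 48 h of FGF2 (points; black bars are mean and SD, each vertical axis starts at 0 and has its own scale). The points of the 2 times do not overlap for any of the 4 genes: Sall2 goes from 20.4 to 125.6 CPM, and Sall3 is the member that falls.

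**Figure D2:**
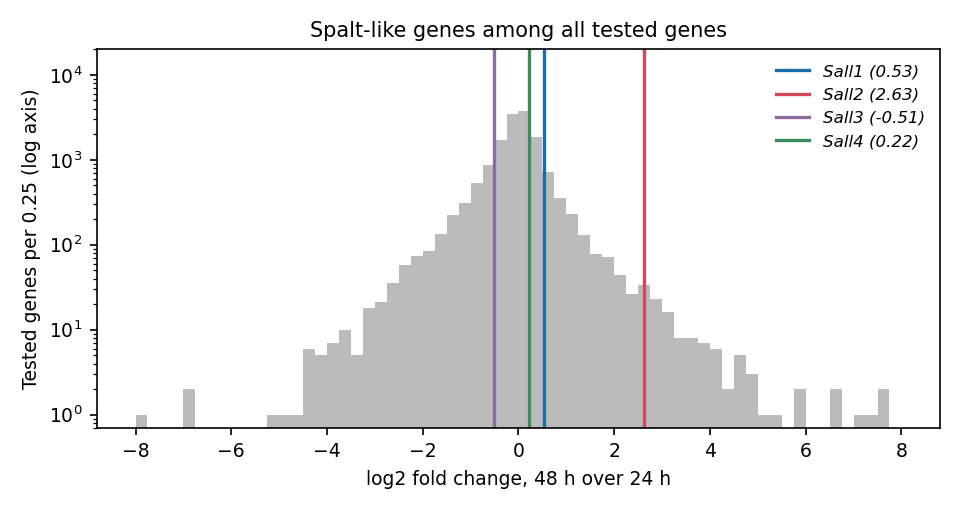
Number of tested genes per bin of 0.25 in log2 fold change, 48 h over 24 h (grey, log axis), with a line at each Spalt-like gene. Sall1 (0.53), Sall4 (0.22) and Sall3 (-0.51) lie in the central mass and Sall2 (2.63) in the upper tail, where 0.699% of tested genes lie further out.

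Whether the members' changes differed from each other was asked through the log2 ratio of 2 members within a library, in which depth and scaling cancel. All 6 pairs were compared. The ratio of Sall2 to Sall3 was -0.91 ± 0.24 at 24 h and 2.21 ± 0.16 at 48 h (SD, n = 3), a shift of 3.13 ± 0.17 (standard error) or 8.75-fold. Sall2 gained on Sall4 by 2.40 ± 0.08 and on Sall1 by 2.09 ± 0.07. Sall1 gained on Sall3 by 1.04 ± 0.12, and Sall4 gained on Sall3 by 0.73 ± 0.09. The smallest shift was between the 2 abundant members, where Sall1 gained on Sall4 by 0.31 ± 0.03, from 0.34 ± 0.01 to 0.65 ± 0.04. In each of the 6 pairs the 3 ratios at 48 h lay apart from the 3 at 24 h, and each two-sided exact permutation p was 0.1, which is the floor for 3 against 3 libraries and stays 0.1 after adjustment over the 6 pairs.

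Summed over the family, the level was 742.8 ± 6.21 CPM at 24 h and 1058 ± 6.25 CPM at 48 h (SD, n = 3), a ratio of 1.42. The libraries ranged from 735.6 to 746.7 CPM and from 1051 to 1063 CPM. Sall1 added 171 ± 3.2 CPM (standard error) to this, Sall2 105 ± 1.07 CPM and Sall4 49.9 ± 4.7 CPM, while Sall3 dropped by 11.3 ± 2.46 CPM. Sall2 thus gave the second largest part of the gain although it started lowest. The 4 genes together took at most 0.104% of a library's counts.

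The make-up of the family shifted towards Sall2 and away from Sall4 and Sall3. As a share of the summed counts of the 4 genes, Sall2 was at 2.93%, 2.85% and 2.47% in the 24 h libraries and at 11.7%, 12% and 11.9% in the 48 h libraries, with means of 2.75% ± 0.244 and 11.9% ± 0.12 (SD, n = 3). Sall4 was at 40.9%, 40.5% and 40.8% at 24 h and at 33.8%, 32.7% and 33.4% at 48 h, so its share dropped by 7.4 percentage points on average although its own level rose. Sall3 was at 4.85%, 5.06% and 5.61% and then at 2.81%, 2.3% and 2.59%, so its share was 0.496 times what it had been. For Sall2, Sall3 and Sall4 the groups do not overlap, and the two-sided exact permutation p was 0.1 for each, the floor of this design.

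Sall1 kept the largest share and moved least. It was at 51.3%, 51.6% and 51.1% at 24 h and at 51.6%, 53% and 52.1% at 48 h, a mean difference of 0.885 percentage points (exact permutation p = 0.1). Divided by transcript length, the shares were 51.2% ± 0.219 and 51.8% ± 0.67 (SD, n = 3) and the groups overlapped (exact permutation p = 0.2), and without Sall3 in the total the direction turned (-0.54 points). No change of the Sall1 share was therefore established. Sall1 and Sall4 together held 92.1% ± 0.149 of the counts at 24 h and 85.6% ± 0.155 at 48 h.

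**Figure D3:**
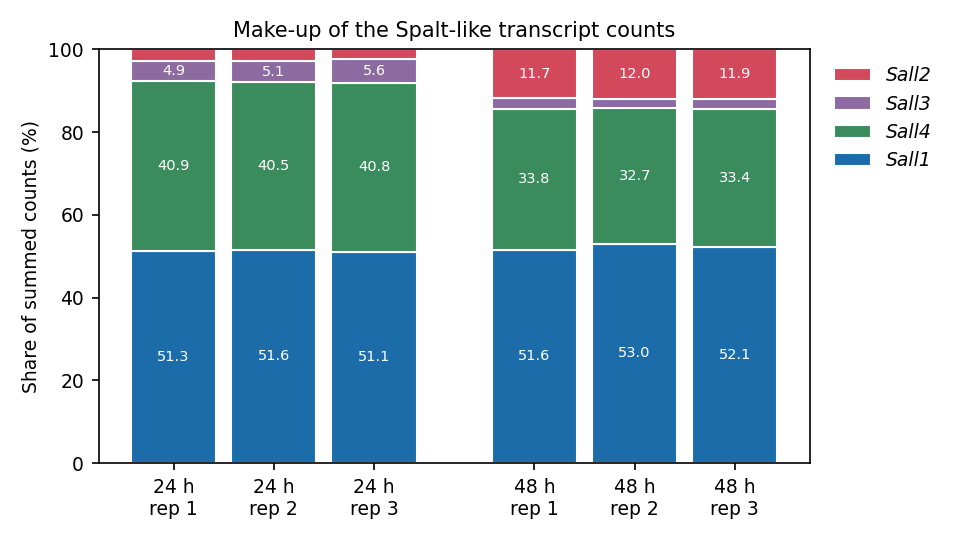
Share (%) of each Spalt-like gene in the summed estimated counts of the 4 genes, 1 bar per library, 24 h left and 48 h right (shares of at least 4% are printed in the bars). Sall2 goes from between 2.47% and 2.93% to between 11.7% and 12%, Sall4 from about 41% to between 32.7% and 33.8%, and Sall1 stays between 51.1% and 53%.

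Levels of different genes can be compared only per length. In CPM per kb of transcript, the order at 24 h was Sall1 (72.5 ± 0.704), Sall4 (59.6 ± 0.391), Sall3 (5.43 ± 0.445) and Sall2 (3.96 ± 0.332, SD, n = 3). At 48 h it was Sall1 (104.9 ± 0.783), Sall4 (69.5 ± 1.56), Sall2 (24.4 ± 0.138) and Sall3 (3.83 ± 0.407). Sall2 and Sall3 thus changed places, from Sall3 at 1.37 times the level of Sall2 to Sall2 at 6.37 times that of Sall3. Neighbours in either order had ranges that did not overlap on this scale. Per kb of coding sequence Sall1 and Sall4 were level at 24 h, at 96.1 ± 0.934 and 94.5 ± 0.62, with ranges that meet at 95.2, and apart at 48 h, at 139.2 ± 1.04 and 110.1 ± 2.46. The order of the 2 abundant members at 24 h therefore rests on which length is used.

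The genes whose profile over the 6 libraries was nearest to each member were found by the root mean square difference of log2 CPM, each gene centred on its own mean, among 10427 genes with a symbol and a mean of at least 5 CPM. Nearest to Sall2 were Map7d3 (0.051), Pcdh1 (0.0619) and Tmem154 (0.074), and 6 genes in all were within 0.1. Nearest to Sall1 were Akap11, Zfp534 and Nolc1 (0.0126 to 0.0142), with 773 genes within 0.1. Nearest to Sall4 were Ptpn1, Mycl and Dcaf1 (0.00766 to 0.00962), with 3152 genes within 0.1, and nearest to Sall3 were Ndufb4, Tubb3 and Sdf2l1 (0.0378 to 0.0442), with 151. With 2 time points, likeness here means a change of like size with like scatter. Sall2 had the fewest near profiles and Sall4, which moved least, the most.

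The partners through which SALL proteins act were then described. Of 15 NuRD subunit genes, all tested, 8 were higher at 48 h, 2 were lower and 5 were not called, with a median log2 fold change of 0.17 against -0.01 over all tested genes. The share called, 66.7%, is near the 62.8% of all genes. When counts were scaled by library total alone, Chd3 (-0.17, edgeR adjusted p = 0.0105) and Gatad2b (-0.09, edgeR adjusted p = 0.0278) were called lower as well. The most counted subunit gene, Chd4, the remodelling ATPase, rose from 892.1 ± 11.5 to 1119 CPM (log2 fold change 0.33). Cdk2ap1 had the largest rise (0.78) and Hdac2, a deacetylase, the largest fall (-0.31), while its paralog Hdac1 was at 185.5 and 188.6 CPM (edgeR adjusted p = 0.408). Mta3 (0.62) rose and Mta2 (-0.14) fell, both of the family of subunits that hold the deacetylases. Mbd3, the subunit tied to embryonic stem cells, rose by 0.33 on the log2 scale, and Mbd2, which binds methylated DNA, was at 15.7 and 15.2 CPM (edgeR adjusted p = 0.536). Of the subunit genes named here, Chd3, Chd4, Cdk2ap1 and Hdac1 had fractional counts, so part of their reads was divided with similar genes.

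Of 12 pluripotency factors that share a network with Sall4, all were called, 9 lower and 3 higher, with a median log2 fold change of -0.92. Over all tested genes 62.8% were called, 31.9% lower and 30.9% higher. Sall4 and Sall1 therefore rose while most of this list fell. Tbx3 had the largest fall (-3.57) and Zfp281, a zinc finger factor of the exit from naive pluripotency, the largest rise (0.55, close to the 0.53 of Sall1). Dppa4 (0.37) and Dppa2 (0.33), a pair of chromatin proteins with fractional counts, rose as well. Pou5f1, which encodes OCT4 and was the most counted of the list, changed by -0.07 ± 0.02 (edgeR adjusted p = 0.000662).

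Trophectoderm genes were listed because embryonic stem cells that lose Sall4 can express them. Of 10, 7 were tested and 5 were lower at 48 h, none was higher and 2 were not called, with a median of -0.59. The share called, 71.4%, stands beside 62.8% of all genes, and the median was -1.97 when at least 10 counts were asked for in every library. Tead4 had the largest fall, from 40.6 ± 0.201 to 9.5 CPM (log2 fold change -2.09), followed by Tfap2c (-2.09) and Krt8 (-1.97). Cdx2, the defining gene of that lineage, had at most 1 count in a library and Elf5 at most 2. Krt18 (-0.34, edgeR adjusted p = 0.037) lost its call in 7 of the alternatives, with an adjusted p of up to 0.171, among them each fit without 1 library other than replicate 1 of 48 h (-0.37 to -0.27).

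Of 10 primitive endoderm genes, a lineage in which Sall4 also acts, 6 were tested, with 3 lower, 1 higher and 2 not called (median -0.93). The share called, 66.7%, is near the 62.8% of all genes. The median was -0.56 without replicate 3 of 24 h and -0.38 with no filter on low counts beyond 1 count in all. Lama1 had the largest fall (-2.00), Sparc was the most counted (159.2 ± 7.32 to 64.9 CPM) and Lamb1 was the one that rose (0.14). That call was lost without replicate 3 of 48 h (0.10, edgeR adjusted p = 0.0587) and with library size as the only scaling (0.08, edgeR adjusted p = 0.117). Gata6 and Sox17 had at most 11 counts. Of 10 neural genes, 8 were tested, with 4 higher, 3 lower and 1 not called (median 1.002, or 0.56 with at least 10 counts in every library), which is 87.5% called beside 62.8% of all genes. Zic1 (1.86) had the largest rise, on only 7 to 39 counts in a library. The better counted Sox11 (1.61), Pax6 (1.56) and Sox1 (1.31) rose as well. Zfp521 (-0.86) had the largest fall, and the most counted was Tubb3 (-0.53, fractional counts), whose change was about that of Sall3. Nes (-0.19) lost its call with DESeq2 (adjusted p = 0.0554) and in edgeR without replicate 2 (-0.14, adjusted p = 0.0949) or replicate 3 (-0.16, adjusted p = 0.0652) of 48 h. The fold change of Sall2 (2.63) was larger than that of any tested gene of the neural list.

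The ligase CRL4-CRBN, through which thalidomide and its analogs lead to SALL4 degradation in human cells, was the last list. All 5 genes were tested, with 2 higher (Cul4b 0.25, Cul4a 0.34), 2 lower (Ddb1 -0.20, Crbn -0.18) and Rbx1 not called (median 0.05), which is 80% called beside 62.8% of all genes. Crbn, the substrate receptor, was at 66 ± 2.31 CPM at 24 h and 58.4 CPM at 48 h. The called changes were small beside that of Sall2 but of about the size of that of Sall4 (0.22), and that of Cul4a was larger. Some genes named above overlap exons of an opposite-strand gene (GENCODE M21), as Sall4 does. They are Lin28a, Tbx3, Pou5f1, Krt8, Zic1, Ddb1, Crbn, Gata6, Sox17, Gatad2b, Fbn1 and Dcaf1. Their counts can hold reads of the opposite-strand gene if strand was not used.

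**Figure D4:**
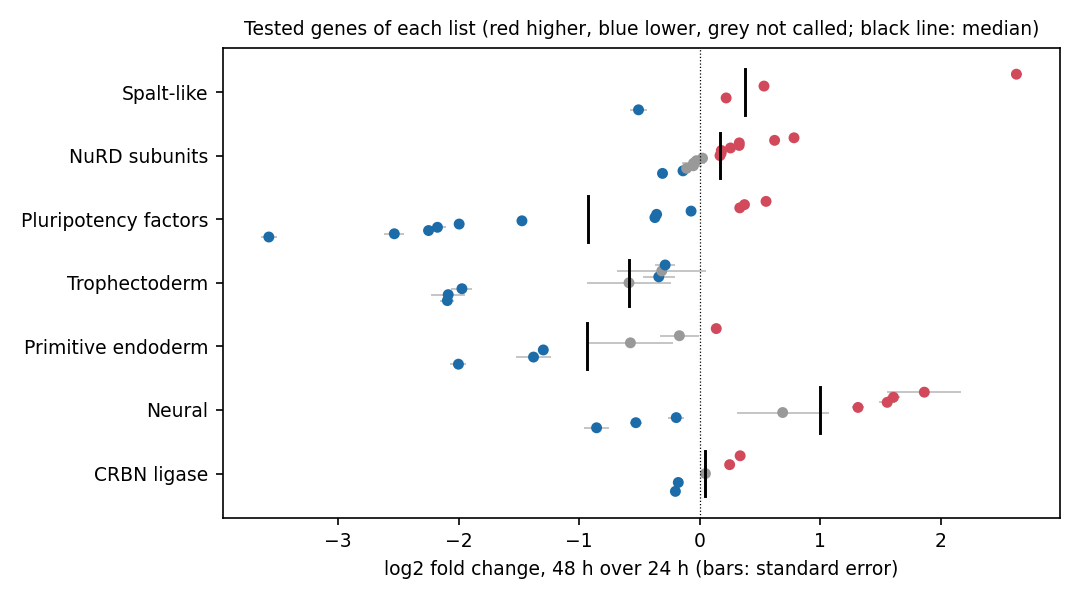
log2 fold change, 48 h over 24 h, of the tested genes of each list (points with standard errors; red higher, blue lower, grey not called; black line, median). The Spalt-like genes spread from -0.51 to 2.63 and the NuRD subunits from -0.31 to 0.78, while the pluripotency factors have their median at -0.92.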

How the data were processed

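Estimated counts per gene were deposited by the authors as 1 table, with 1 column for each of 6 samples and 0 columns without a sample. Per the submitters' processing notes, cutadapt 1.9.1, STAR 2.5.2, RSEM 1.3.0 and the build GRCm38 were used. The annotation and the use of strand are not given in the sources used here. Counts were rounded, kept by filterByExpr (minimum count 10), scaled by TMM and compared with edgeR's quasi-likelihood test (edgeR 4.0.16, limma 3.58.1, DESeq2 1.42.0, R 4.3.3) with time as the only term, over all genes. The test was checked on simulated counts in which far fewer genes changed than were called here, so a change of this extent was not checked. Standard errors are the fold change divided by the square root of F. Ratios used a pseudocount of 0.5, and exact permutation tests used scipy 1.17.1. The members and lists were chosen with earlier results of these data known. All members were named. For each list described above, the called gene with the largest rise, the one with the largest fall and the most counted one were named, with others where useful. A list of 8 primitive streak genes was also drawn up. Only 1 of them was tested, Eomes (-0.29, edgeR adjusted p = 0.00705), which is also on the trophectoderm list. Eomes shares 118 exon bases with Gm33460 on the opposite strand. Symbols (51633 of 51912 genes) and lengths are from GENCODE M21. Alternatives were other scalings, filters and tools, unrounded counts, the replicate block, other lengths and pseudocounts, and leaving out each library.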

Additional observations from a re-analysis of the deposited data

How the results depend on the processing

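In the 15 alternative fits no member lost its call or turned its direction. The log2 fold change ranged from 0.47 to 0.54 for Sall1, 2.55 to 2.67 for Sall2, -0.58 to -0.43 for Sall3 and 0.16 to 0.24 for Sall4, with the largest adjusted p, 0.000116, for Sall3. The shifts of the 6 ratios moved by less than the spread between replicates in all 54 alternative values, but this outcome was fixed in advance. Leaving out 1 of 3 libraries cannot move a mean by more, and the replicate block leaves the mean shift as it was. The other pseudocounts are tiny beside 430 or more counts. Over these alternatives the shift ranged from 2.99 to 3.22 for Sall2 over Sall3 and from 0.29 to 0.33 for Sall1 over Sall4. The number of called genes was between 7986 (DESeq2) and 9792 (every gene with a count). With library size as the only scaling, the log2 ratio of the family total was 0.45, and 39.9% of called genes were higher, against 49.2% with TMM. Divided by transcript length, the share of Sall3 changed by -1.95 points and that of Sall4 by -7.87 points. Per coding length, Sall2 changed by 10.7 and Sall4 by -8.6 points. Without Sall3 in the total, Sall1 changed by -0.54 points and Sall4 by -8.75 points. With library size only, Hdac1 was at -0.036, Rbx1 at -0.012 and the median of the CRBN ligase list at -0.012, in place of small positive values, and Chd3 (-0.169) and Gatad2b (-0.088) were called lower. When 1 library was left out, Gatad2b ranged from -0.061 to 0.001 and Chd5 (which shares exon bases with Gm13645 on the other strand) from -0.099 to 0.025, neither called in these fits. What caused such shifts was not tested. Without 1 library, the trophectoderm median lay between -0.83 and -0.41, the primitive endoderm median between -1.03 and -0.56 and the neural median between 0.90 and 1.15. With at least 10 counts in every library, which tests fewer genes, they were -1.97, -1.30 and 0.56, and with every gene with a count, -0.71, -0.38 and 1.29. With the replicate block 9235 genes were called, 9138 of them shared, and no member's call changed. The deviations of same-numbered libraries correlated at -0.05, -0.04 and -0.01, which does not pair them. Depth limits the 24 h value of Sall2 most, where 430 to 435 counts give a counting error of 4.8%.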

Other observations

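The protein-coding genes next to the members moved in both directions. Atp9a, which lies 5923 bases from Sall4, fell (log2 fold change -0.80 ± 0.04, edgeR adjusted p = 1.66e-11) while Sall4 rose, and Zfp64 on its other side had a log2 fold change of -0.20. Atp9b, a paralog of Atp9a, lies beside Sall3 and fell as Sall3 did, by 0.30 on the log2 scale (edgeR adjusted p = 7.08e-06). Mettl3, the RNA methyltransferase gene 6044 bases from Sall2, rose by 0.44 on that scale against 2.63 for Sall2 (it shares 933 exon bases with Tox4 on the opposite strand), and Olfr1513, an olfactory receptor gene on the other side, had 0 counts in every library. Beside Sall1, Tox3 rose by 0.97 from 1.24 to 2.42 CPM and Cyld had a log2 fold change of -0.10.

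Within the 24 h group, replicate 3 had the lowest Sall2 (18.4 CPM) and the highest Sall3 (41.9 CPM) of the 3 libraries. Without it, the log2 fold change was 2.55 for Sall2 and -0.44 for Sall3, in place of 2.63 and -0.51.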
